A study of Mus musculus with 12 samples.

Results

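Macrophages sense bacterial lipopolysaccharide (LPS) through Toll-like receptor 4 (TLR4), and 10 genes around that receptor were examined here. They are the co-receptors Cd14 and Ly96 (the gene of MD-2), the adaptors Myd88 and Tirap, the adaptors Ticam1 (TRIF) and Ticam2 (TRAM), the kinases Irak1, Irak2 and Irak4, and the brake Irak3 (IRAK-M). The members were taken by gene symbol, with earlier results of these data known. All 10 were found among the 16920 genes of each table and passed the filter on low counts, which left 12064 genes to test. The RNA came from peritoneal macrophages of C57BL/6 mice aged 6 to 10 weeks, either wild type (WT) or carrying a Ythdf1 knockout made with CRISPR/Cas9 in the whole animal (KO). Ythdf1 encodes a protein that binds N6-methyladenosine in RNA. The cells had been drawn into the peritoneum by an irritant, named as starch broth in the series record and as thioglycollate in the study's methods, and were cultured before stimulation. They were then kept for 6 h with PBS or with LPS at 1 µg/mL, which gave the groups WT PBS, WT LPS, KO PBS and KO LPS with 3 libraries each. The libraries are labelled as independent biological samples, and no source says whether cells of several mice were pooled.

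In this pathway CD14 takes up LPS and hands it to MD-2, a small protein that sits on the outer part of TLR4 and holds the lipid. The occupied receptor at the cell surface binds TIRAP, which docks MyD88 at the membrane. MyD88 then gathers IRAK4, IRAK1 and IRAK2 into a complex that passes the signal to TRAF6 and on to NF-κB and the MAP kinases. After the receptor has been taken into the cell, TRAM docks TRIF, which signals through TRAF3 and TBK1 to IRF3 and the type I interferon genes. IRAK-M resembles the IRAK kinases but dampens the MyD88 arm, and it is known from macrophages that have become tolerant to LPS.

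Total counts lay between 21546274 and 22017005 per library. Macrophage markers (8 of 8 present, Cd14 among them) summed to between 17170 and 19943 CPM (the read count normalised to the scaled size of its library) in the 12 libraries, most of it Lyz2. Among them Mertk had a mean of 232.6 CPM in WT LPS and 98.3 in KO LPS, and Csf1r 424.6 and 294.6. Markers of other cell types differed by group. The 6 T cell markers summed to 0.537 to 0.904 CPM in the PBS libraries, 8.67 to 13.2 in WT LPS and 4.17 to 4.59 in KO LPS. Most of the LPS sums was Lck (10.3 and 3.96 CPM), while the defining markers Cd3e, Cd3d and Cd3g had group means of at most 0.0409 CPM. The 7 neutrophil markers found summed to 5.65 to 7.97 CPM in the PBS libraries, 11.9 to 14.5 in WT LPS and 13.9 to 21.9 in KO LPS, most of it S100a8 and Cxcr2, while S100a9, Mpo and Elane had group means of at most 0.0236 CPM. The 5 mesothelium markers summed to 6.37 to 7.29 CPM in the WT libraries and 3.26 to 5.66 in the KO libraries, with no overlap. The 5 fibroblast markers summed to 75.1 to 88.6 CPM in WT PBS, 118.5 to 131.9 in WT LPS, 32.9 to 46.2 in KO PBS and 57.0 to 69.5 in KO LPS. The 5 skeletal muscle markers summed to 17.2 to 33.6 CPM in the WT libraries and to 15.2 and 19.6 CPM in 2 KO PBS libraries, but to 0.319 CPM in KO PBS replicate 3 and 0.428 to 0.684 CPM in KO LPS. The part of these cells in the results was not tested. In bulk RNA, fewer cells of a type and less RNA per cell cannot be told apart. The mRNA of Ythdf1, the targeted gene, was not lower in the libraries labelled KO. Under PBS it stood at 57.2 ± 1.53 CPM in KO against 43.5 ± 1.54 in WT (SD, n = 3). The log2 difference was 0.40 ± 0.058 under PBS (SE, adjusted p = 0.000133) and -0.03 ± 0.0557 after LPS (adjusted p = 0.724). The study typed its knockout mice by genotype and blotted YTHDF1 protein in liver and spleen of its bone marrow chimeras. Counts of mRNA do not tell whether the protein was made, so KO is used below as the name of a label. Replicate 1 of WT LPS stood apart from replicates 2 and 3, with a mean chi-square per gene of 31.4 and 24.4 against them but 3.01 between those libraries. In KO LPS this value was 15.9 between replicates 2 and 3 and 7.12 and 5.61 for the other pairs. Within the PBS groups it was 2.75 to 4.63. The calls of the members that rest on WT LPS replicate 1 are therefore also given without it. Calls counted below for other genes that were lost without it include those of Lbp for LPS in WT (0.46), Tbkbp1 by label after LPS (-0.19) and Peli2 in the interaction (-0.62).

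In unstimulated WT cells the 10 genes were expressed within about 1 order of magnitude of each other once transcript length was taken into account. Cd14 was the highest at 33.0 ± 1.42 CPM per kilobase of transcript (SD, n = 3), followed by Irak1 at 27.9 ± 1.01 and Myd88 at 22.0 ± 0.9. Irak2, Ly96 and Ticam1 followed at 16.4, 16.3 and 14.9 CPM per kilobase, and the libraries of neighbours in that order overlapped. Irak4 stood at 10.2 CPM per kilobase, with Irak3 just below it in overlapping libraries. Ticam2 at 7.6 and Tirap at 3.48 CPM per kilobase were the lowest, so the sorting adaptor of each arm was scarcer than the adaptor it docks. After LPS the order in WT was led by Cd14 at 280.3 and Myd88 at 236 CPM per kilobase. Irak2 and Irak3 came next at 79.0 and 73.0 with overlapping libraries, and no other member was above 29.1 CPM per kilobase.

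**Figure D1:**
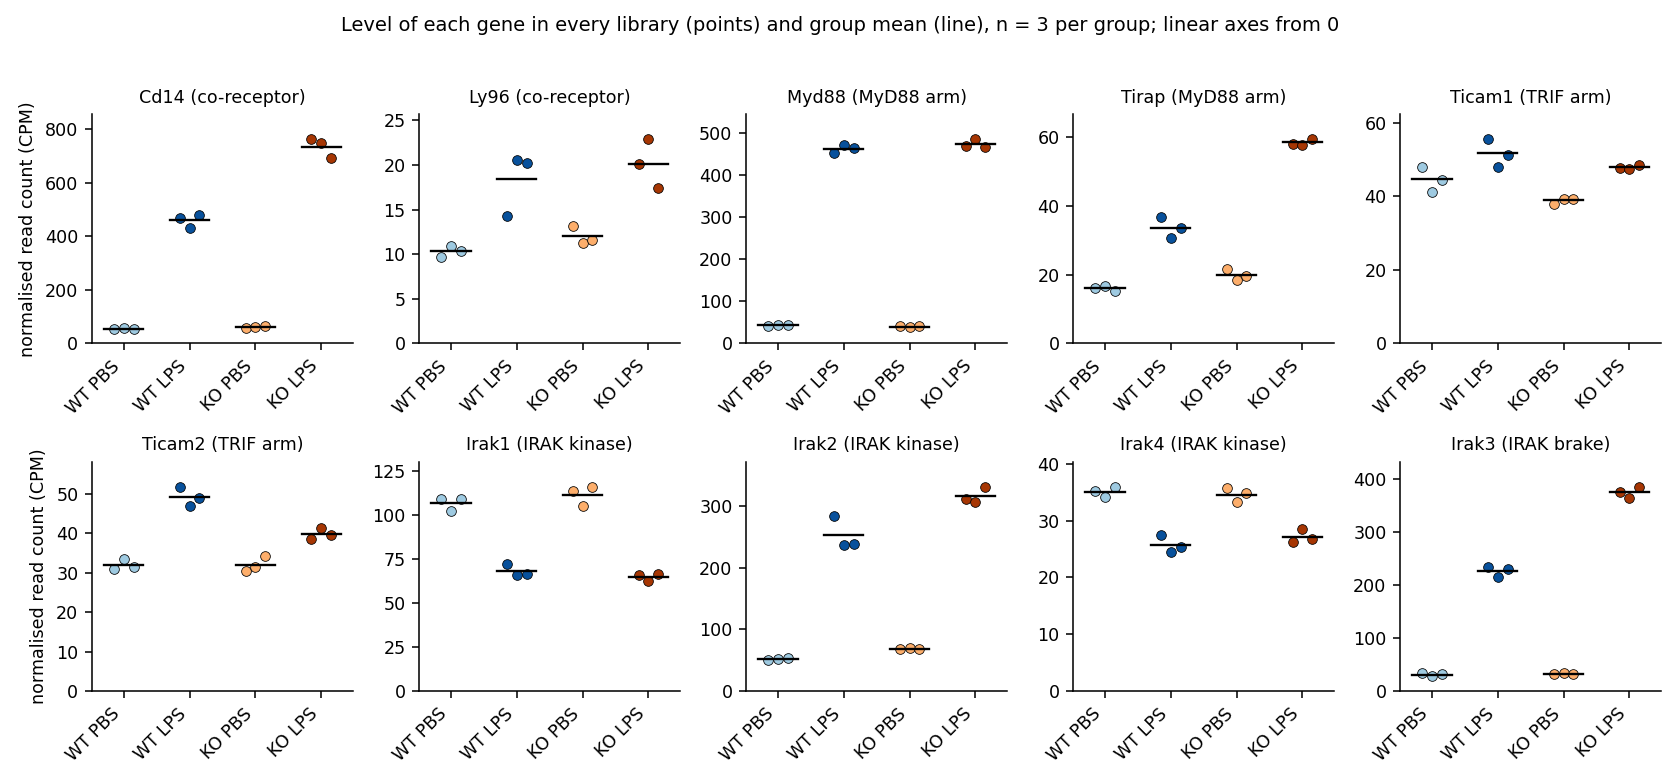
Each panel shows 1 gene, with the normalised read count (CPM, linear axis from 0) of each of the 12 libraries as points and the group mean as a line (n = 3 per group). Cd14, Myd88, Irak2 and Irak3 stand far higher in both LPS groups, Irak1 and Irak4 stand lower, and Tirap and Irak3 are higher in KO LPS than in WT LPS.

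The first question was what LPS did to the co-receptors. Cd14, which captures LPS at the cell surface, stood at 52.9, 56.9 and 52.8 CPM in the WT PBS libraries and at 468, 433 and 479 CPM in the WT LPS libraries. It rose 8.49-fold, a log2 change of 3.08 ± 0.0687 (SE, adjusted p = 1.67e-16). In KO-labelled cells Cd14 went from 58.2, 62.2 and 66.0 CPM to 764, 747.5 and 694 CPM, a log2 fold change of 3.56 ± 0.0698 (adjusted p = 2.80e-17). No LPS library came near any PBS library in either genotype. Ly96, whose product binds the lipid part of LPS, was among the least abundant members in CPM. Its WT PBS libraries held 9.73, 10.9 and 10.3 CPM and its WT LPS libraries 14.3, 20.6 and 20.2 CPM, of which replicate 1 was the lowest. The log2 fold change of Ly96 was 0.84 ± 0.128 (adjusted p = 1.90e-05) in WT and 0.75 ± 0.126 (adjusted p = 4.60e-05) in KO. Within a library, which no scaling can affect, there were 5.26 counts of Cd14 for each count of Ly96 in WT PBS and 25.3 in WT LPS (geometric means, n = 3). In KO the same ratio went from 5.18 to 36.7.

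The receptor itself moved the other way. Tlr4 was at 57.9 ± 2.71 CPM (SD, n = 3) in WT PBS and 34.7 ± 2.4 CPM in WT LPS, a log2 change of -0.74 ± 0.0723 (SE, adjusted p = 7.13e-08). In KO it fell by 0.67 on the log2 scale (adjusted p = 2.17e-07). Tlr4 thus fell while its co-receptor Cd14 rose.

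The MyD88 arm was then examined. The promoter of Myd88 is shown because that gene had the highest fold change of the members in WT and because its promoter holds a match to an interferon-type element. Sequences are from RefSeq (GRCm38.p6) and run 5′ to 3′ on the gene's own strand for the 250 bases before the annotated start. The capitals mark GAAA, any 2 bases and GAAA again, the letters of an interferon-stimulated response element, which lie 40 to 31 bases before the start.
Myd88 promoter, minus strand, chr9:119340019-119340268: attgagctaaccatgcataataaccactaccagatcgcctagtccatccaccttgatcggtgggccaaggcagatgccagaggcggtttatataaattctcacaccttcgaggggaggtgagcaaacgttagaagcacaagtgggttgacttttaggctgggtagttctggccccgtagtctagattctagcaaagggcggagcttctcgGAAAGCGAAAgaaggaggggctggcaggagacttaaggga

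On both strands, this motif was found in the promoters of 3.37% of 13252 genes. A match describes letters and not binding.

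Myd88, the adaptor shared by most Toll-like receptors and by the interleukin-1 receptors, stood at 41.3, 43.1 and 44.8 CPM in WT PBS and at 452, 471 and 463 CPM in WT LPS. This was a 10.7-fold rise, with a log2 change of 3.42 ± 0.0562 (SE, adjusted p = 5.24e-18). In KO-labelled cells the values were 40.5, 39.4 and 40.4 CPM with PBS and 468, 485 and 465 CPM with LPS, a log2 fold change of 3.56 ± 0.0566 (adjusted p = 2.84e-18). The LPS libraries of both genotypes overlapped. Tirap, the sorting adaptor that brings MyD88 to the receptor, started lower and rose less. It held 16.1, 16.6 and 15.2 CPM in WT PBS and 36.6, 30.5 and 33.5 CPM in WT LPS, a log2 fold change of 1.07 ± 0.0798 (adjusted p = 2.06e-09). In KO Tirap went from 21.7, 18.4 and 19.7 CPM to 57.9, 57.6 and 59.3 CPM, a log2 fold change of 1.55 ± 0.0766 (adjusted p = 6.37e-12). The 3 KO LPS libraries lay above all other libraries.

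The adaptors of the TRIF arm moved less than Myd88, and the direction of the change depended on how libraries were scaled. Ticam1 (TRIF) stood at 48.1, 41.3 and 44.4 CPM in WT PBS and at 55.6, 48.1 and 51.3 CPM in WT LPS, so that the groups nearly met. The log2 fold change was 0.21 ± 0.068 (SE, adjusted p = 0.00954) in WT and 0.30 ± 0.0689 (adjusted p = 0.000773) in KO. The counts as deposited went down, however, from 1329, 1155 and 1243 to 962, 845 and 909 in WT, although the libraries had nearly equal totals. Scaled by totals alone, Ticam1 fell by 0.45 in WT (adjusted p = 4.87e-06) and by 0.50 in KO (adjusted p = 1.53e-06) on the log2 scale. With upper-quartile scaling it was at -0.10 and -0.06 and passed the threshold in neither genotype. With the GC correction it was higher, at 0.39 (adjusted p = 9.36e-06) and 0.57 (adjusted p = 1.25e-07). Ticam2 (TRAM), which docks TRIF at the internalised receptor, was at 31.0, 33.4 and 31.5 CPM in WT PBS and 51.9, 47.0 and 49.0 CPM in WT LPS, a log2 fold change of 0.63 ± 0.0656 (adjusted p = 1.76e-07). In KO-labelled cells it went from 30.5, 31.4 and 34.3 CPM to 38.5, 41.4 and 39.7 CPM, a log2 fold change of 0.31 ± 0.0666 (adjusted p = 0.000388). Scaled by totals alone, Ticam2 was at -0.04 (adjusted p = 0.581) in WT and fell by 0.49 (adjusted p = 2.20e-06) in KO. With upper-quartile scaling Ticam2 was at 0.315 (adjusted p = 0.000276) in WT, and its call in KO was lost (-0.042, adjusted p = 0.557).

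Ratios of counts within a library do not depend on scaling, and they were used to set the arms against each other. In WT PBS the libraries held 0.859, 1.04 and 1.01 counts of Myd88 for each count of Ticam1, and in WT LPS 8.12, 9.79 and 9.04. In KO the same ratio was 1.07, 1.00 and 1.03 with PBS and 9.83, 10.2 and 9.57 with LPS. Counts of both adaptors were thus nearly equal at rest. Per kilobase of transcript Myd88 stood higher, at 22.0 CPM against 14.9 for Ticam1 in WT PBS and 20.5 against 13.0 in KO PBS. With LPS the balance had moved 9.27-fold towards Myd88 in WT and 9.57-fold in KO. The change was 3.21 and 3.26 on the log2 scale against a spread between libraries of 0.143 and 0.047 (pooled SD, log2). The 2 genotypes overlapped both with PBS and with LPS. Without WT LPS replicate 1 the change in WT was 3.28. The sorting adaptors gave a smaller and genotype-dependent shift. The ratio of Tirap to Ticam2 was 0.52, 0.498 and 0.482 in WT PBS and 0.705, 0.648 and 0.684 in WT LPS. In KO it was 0.711, 0.583 and 0.573 with PBS and 1.51, 1.39 and 1.49 with LPS. Tirap outnumbered Ticam2 only in the 3 KO LPS libraries, and the genotypes did not overlap with either treatment.

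**Figure D2:**
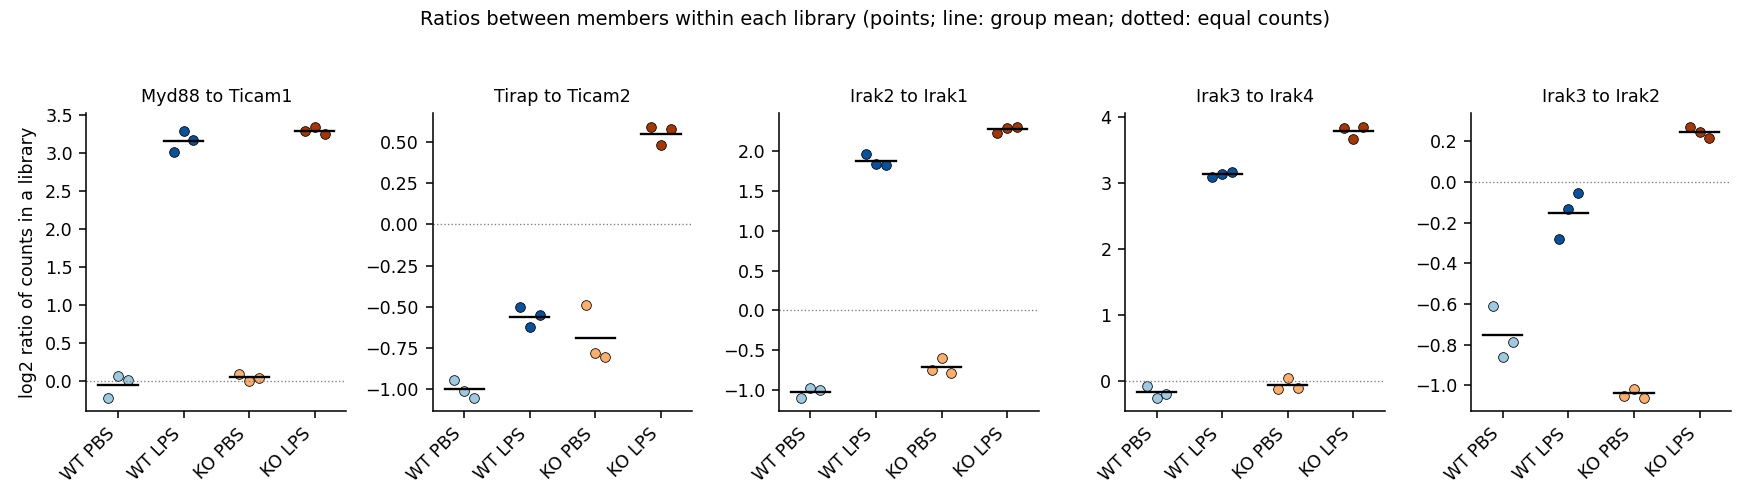
Each panel shows the log2 ratio of the counts of 2 members within each of the 12 libraries (points), with the group mean as a line (n = 3) and equal counts as a dotted line. Myd88 to Ticam1 and Irak2 to Irak1 shift by about the same amount in both genotypes. Tirap to Ticam2, Irak2 to Irak1, Irak3 to Irak4 and Irak3 to Irak2 end higher in KO LPS than in WT LPS.

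Among the IRAK kinases, 1 rose and the other 2 fell. Irak2, which sustains signalling at later times, stood at 50.8, 51.9 and 54.1 CPM in WT PBS and 283, 236 and 238 CPM in WT LPS, with replicate 1 the highest. Its log2 fold change was 2.27 ± 0.0708 (SE, adjusted p = 1.35e-14), and 2.18 without that replicate. In KO Irak2 went from 67.6, 69.3 and 67.4 CPM to 311, 307 and 331 CPM, a log2 fold change of 2.21 ± 0.0702 (adjusted p = 1.45e-14). Irak1, the kinase that is modified and turned over early after the receptor is engaged, was the most abundant of the family at rest. It fell from 109.3, 102.6 and 109.3 CPM to 72.3, 66.0 and 66.8 CPM in WT, a log2 fold change of -0.65 ± 0.061 (adjusted p = 4.59e-08). In KO it fell by 0.78 on the log2 scale (adjusted p = 3.81e-09), from between 105.3 and 116.2 CPM to between 62.6 and 66.7 CPM. Irak4, the first kinase of the complex and the one that the others depend on, went from 35.3, 34.2 and 36.0 CPM to 27.4, 24.5 and 25.4 CPM in WT, a log2 fold change of -0.45 ± 0.0646 (adjusted p = 8.00e-06). In KO it fell by 0.35 (adjusted p = 0.000105). Both falls were larger when libraries were scaled by upper quartile or by totals alone. The ratio of Irak2 to Irak1 turned from 0.465, 0.506 and 0.495 in WT PBS to 3.91, 3.58 and 3.56 in WT LPS, and from between 0.58 and 0.658 to between 4.69 and 4.97 in KO. Every LPS library thus held more counts of Irak2 than of Irak1 and every PBS library fewer.

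Sequences that bear on the IRAK genes are given because Irak1 is a known target of the microRNA miR-146a, which LPS induces in macrophages through NF-κB. The microRNAs themselves were not measured here. In the mature forms (RefSeq, GRCm38.p6) the capitals mark the seed, bases 2 to 8, which both share.
mmu-miR-146a-5p, minus strand, chr11:43374435-43374456: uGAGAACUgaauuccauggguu
mmu-miR-146b-5p, plus strand, chr19:46342790-46342811: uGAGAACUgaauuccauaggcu

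The letters that pair with this seed, AGTTCTC, occurred in the 3′ UTR of 3 members, with 2 matches each in Irak1, Irak2 and Tirap, read on the sense strand of 1 coding transcript per gene (GENCODE). They occurred in 11.9% of all 16125 genes with a 3′ UTR. Both matches of Irak1 and the first of Irak2 are printed with the match in capitals. The matches of Irak1 begin at bases 40 and 56 of its 3′ UTR, so their surroundings overlap.
Irak1, first match: gactcagaggtcaaAGTTCTCatgcttgg
Irak1, second match: ttctcatgcttggaAGTTCTCatagtgtg
Irak2, first match: cccccaaacctcttAGTTCTCcacaacgg

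Of these 3 genes Irak1 fell with LPS, whereas Irak2 and Tirap rose. The promoter of Irak1 was the other one with a match. The capitals mark 10 bases that fit the NF-κB consensus, spelled by name because it allows several letters at some places, and they lie 18 to 9 bases before the start on both strands.
Irak1 promoter, minus strand, chrX:74023922-74024171: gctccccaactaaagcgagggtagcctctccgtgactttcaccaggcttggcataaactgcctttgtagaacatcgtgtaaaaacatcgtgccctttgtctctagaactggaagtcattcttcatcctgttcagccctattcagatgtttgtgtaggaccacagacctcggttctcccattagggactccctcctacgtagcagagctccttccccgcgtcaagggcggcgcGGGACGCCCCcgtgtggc

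The NF-κB consensus was found in the promoters of 10.4% of genes. The AP-1 letters TGACTCA or TGAGTCA were found in 4.49% of genes. Of the 7 members with a promoter in the reference table, Irak2, Tirap, Irak3, Irak4 and Ticam1 held none of the 3 motifs in this window.

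Irak3, the brake of the family, was the member with the third highest fold change in WT. It stood at 33.4, 28.6 and 31.4 CPM in WT PBS and at 233, 216 and 229 CPM in WT LPS, a 7.26-fold rise with a log2 change of 2.86 ± 0.0656 (SE, adjusted p = 2.43e-16). In KO-labelled cells it went from 32.8, 34.1 and 32.3 CPM to 375, 363 and 385 CPM, an 11.3-fold rise with a log2 fold change of 3.50 ± 0.0667 (adjusted p = 2.02e-17). All 3 KO LPS libraries lay above all WT LPS libraries, while the PBS groups overlapped. For each count of Irak4 there were 0.945, 0.837 and 0.872 counts of Irak3 in WT PBS, 8.52, 8.79 and 9.03 in WT LPS, 0.916, 1.03 and 0.926 in KO PBS, and 14.3, 12.8 and 14.4 in KO LPS. The change with LPS was 3.31 in WT and 3.85 in KO on the log2 scale, and after LPS the ratio was 1.57-fold higher in KO (0.65 on the log2 scale, pooled SD 0.074) with no overlap. Against the rising kinase, Irak3 stood at 0.594 counts for each count of Irak2 in WT PBS and 0.898 in WT LPS, but at 0.485 in KO PBS and 1.18 in KO LPS (geometric means, n = 3). Irak3 outnumbered Irak2 only in the 3 KO LPS libraries.

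With LPS, all 10 members passed the threshold (edgeR, adjusted p under 0.05 over all genes tested) in WT, 8 higher and 2 lower. The median log2 fold change of the members was 0.95, beside -0.05 over all genes tested. This count says little about the members, since 76.7% of all genes passed in WT, 36.5% higher and 40.2% lower. In KO the same 8 members were higher and Irak1 and Irak4 lower, with a median of 1.15 beside -0.04, where 79.9% of all genes passed, 38.8% higher and 41.1% lower. The groups were free of overlap for all 10 members in both genotypes, as they were for 78.2% and 81.3% of all genes. Without WT LPS replicate 1 all 10 members still passed in WT, with Myd88 at 3.44, Cd14 at 3.07, Irak3 at 2.84 and Tirap at 1.00. The scaling sets much of this split. The scaling factors by the trimmed mean of M values (TMM) were 1.258 to 1.314 in PBS and 0.7441 to 0.808 in LPS libraries. Relative to TMM, upper-quartile scaling moved the median of all genes by -0.31 in WT and -0.36 in KO, and totals alone by -0.66 and -0.80. The share of calls that were higher was 47.6% in WT with TMM, 32.5% by upper quartile and 21.2% by totals alone, and 48.6%, 33.8% and 20.8% in KO. Cd14, Myd88, Tirap, Irak2 and Irak3 rose and Irak1 and Irak4 fell in both genotypes under all 4 scalings, though the value of Tirap by totals alone was 0.41 in WT and 0.75 in KO. Ly96 was at 0.18 (adjusted p = 0.236) in WT and -0.05 (adjusted p = 0.71) in KO by totals alone.

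**Figure D3:**
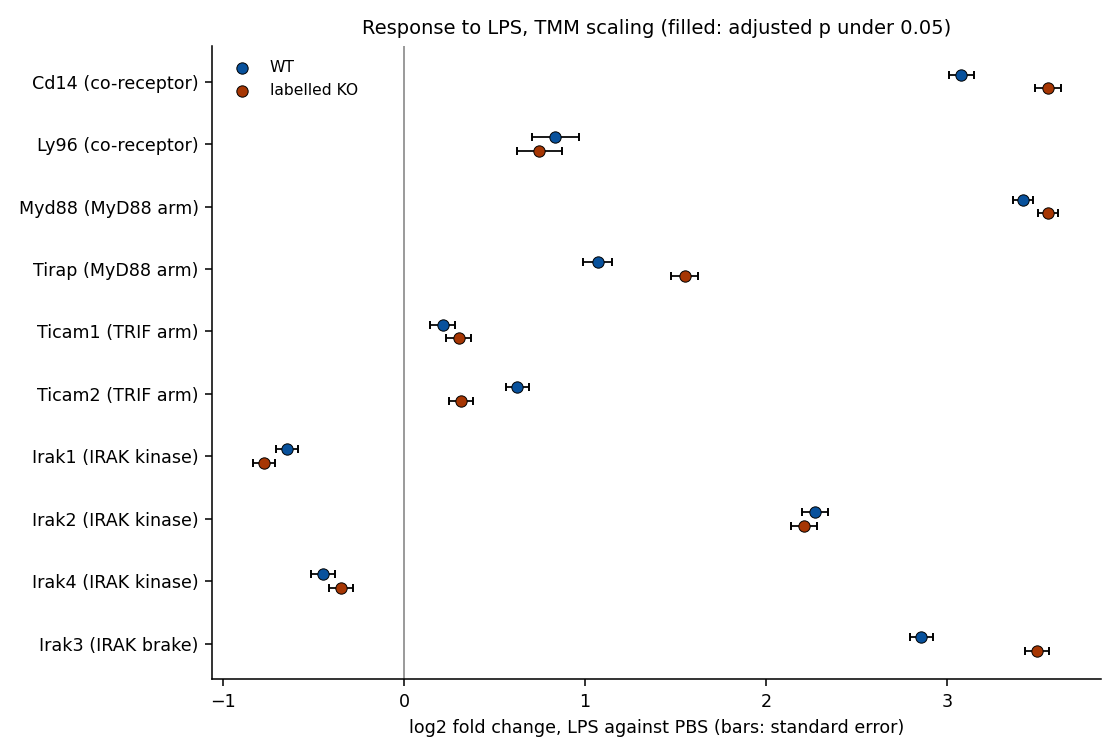
The horizontal axis gives the log2 fold change of LPS against PBS with TMM scaling, with bars for the standard error, for each member in WT and in the libraries labelled KO. Myd88, Cd14, Irak3 and Irak2 lie between 2.2 and 3.6, the TRIF arm adaptors between 0.2 and 0.7, and Irak1 and Irak4 below 0.

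**Figure D4:**
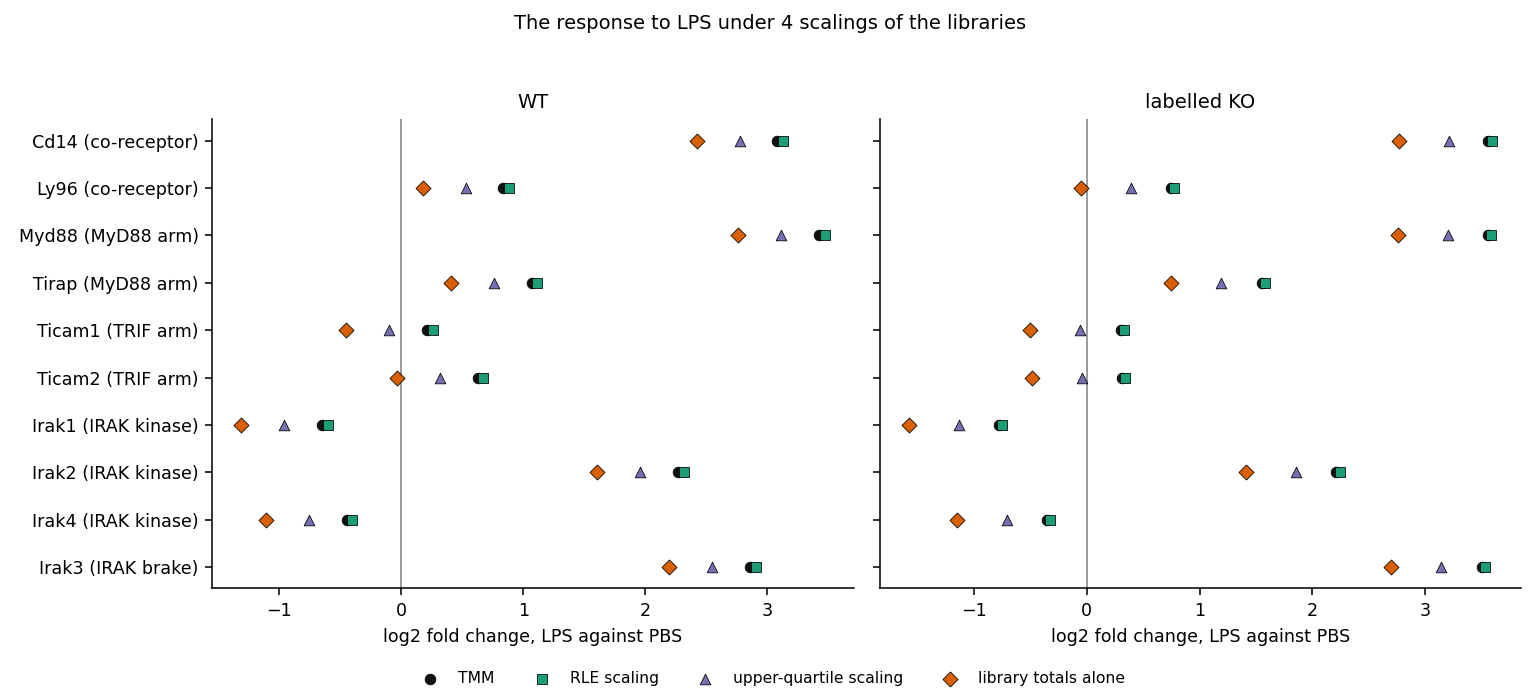
The log2 fold change of LPS against PBS is drawn for each member under 4 scalings of the libraries, in WT (left) and in the libraries labelled KO (right). Each scaling shifts all members together, so that Ticam1 and Ticam2 lie on either side of 0 in both panels and Ly96 in the KO panel alone, while the other 7 members keep their sign.

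The next question was whether unstimulated cells differed by genotype label. Of the 10 members, 4 passed the threshold, 3 higher in KO and 1 lower, where 25.3% of all genes passed, 12.3% higher and 13.0% lower. The share of calls over all genes that were higher was 48.6% with TMM, 42.2% by upper quartile and 61.6% by totals alone. Irak2 had the largest difference, with 67.6 to 69.3 CPM in KO against 50.8 to 54.1 CPM in WT, a log2 difference of 0.38 ± 0.0693 (SE, adjusted p = 0.000813). Tirap was higher by 0.32 ± 0.0798 (adjusted p = 0.00824), with 18.4 to 21.7 CPM in KO and 15.2 to 16.6 CPM in WT. Both calls held without each replicate in turn. Cd14 was higher by 0.20 ± 0.0657 (adjusted p = 0.0378) and Ticam1 lower by 0.20 on the log2 scale (adjusted p = 0.0412). These 2 calls were near the threshold. Ticam1 did not pass with RLE scaling (adjusted p = 0.0677), totals alone (0.0936), no filter (0.06), DESeq2 (0.0685) or the GC correction (0.248), and Cd14 did not pass by upper quartile (0.0703) or with the replicate block (0.0521). Neither passed, and 2 members were left, when replicate 1 or 3 of WT PBS or replicate 2 or 3 of KO PBS was omitted. Ticam1 was also lost on omitting replicate 1 of KO PBS. The other 6 members did not pass, and their log2 differences lay between -0.10 for Myd88 (95% interval -0.21 to 0.00) and 0.22 for Ly96 (-0.03 to 0.47). Ly96 passed when the compared libraries were fitted alone (0.22, adjusted p = 0.0356). The groups were free of overlap for 6 members, beside 48.1% of all genes.

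After LPS, 5 members passed by genotype label, 4 higher in KO and 1 lower, where 41.4% of all genes passed, 22.1% higher and 19.3% lower. Of those calls 53.4% were higher with TMM, 41.6% by upper quartile and 37.9% by totals alone. Tirap was 1.74-fold higher, a log2 difference of 0.80 ± 0.0759 (SE, adjusted p = 8.19e-07). Irak3 was 1.66-fold higher (0.73 ± 0.0599, adjusted p = 1.74e-07), Cd14 1.6-fold higher (0.68 ± 0.0629, adjusted p = 6.47e-07) and Irak2 1.25-fold higher (0.33 ± 0.0667, adjusted p = 0.00103). Ticam2 was lower, at 38.5 to 41.4 CPM against 47.0 to 51.9 CPM (-0.31 ± 0.0667, adjusted p = 0.00159). In each of these 5 genes the KO LPS libraries did not overlap with the WT LPS libraries, as in 45.6% of all genes. Without WT LPS replicate 1 all 5 stayed past the threshold, at 0.87 for Tirap, 0.75 for Irak3, 0.69 for Cd14, 0.42 for Irak2 and -0.27 for Ticam2. Within the MyD88 arm, then, the sorting adaptor Tirap differed by label but Myd88 did not pass (0.03 ± 0.0504, adjusted p = 0.636, 95% interval -0.07 to 0.13). With a correction for the GC content of transcripts Myd88 passed as well, at 0.18 (adjusted p = 0.00877). Within the IRAK family, Irak1 at -0.07 (95% interval -0.19 to 0.05) and Irak4 at 0.08 (-0.06 to 0.21) did not pass. Ticam1 at -0.11 (-0.25 to 0.03) and Ly96 at 0.13 (-0.12 to 0.38) did not pass either, and without WT LPS replicate 1 the value of Ly96 was -0.02. Ticam1 passed by upper quartile (-0.18, adjusted p = 0.0415) and by totals alone (-0.20, adjusted p = 0.0221), and Irak1 by totals alone (-0.16, adjusted p = 0.0406). Summed fibroblast, skeletal muscle, mesothelium and T cell markers were also lower in KO LPS than in WT LPS, as given above, the last mostly through Lck. Neutrophil markers reached higher in KO LPS, at 13.9 to 21.9 CPM against 11.9 to 14.5 in WT LPS. The part of these cells in the differences by label was not tested.

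The interaction of genotype and LPS asks whether the response itself differed by label. It passed for 4 members, 3 with a larger response in KO and 1 with a smaller one, where 18.0% of all genes passed, 9.78% with a higher and 8.26% with a lower value. The share of positive calls was 54.2% with TMM, 43.1% by upper quartile and 24.4% by totals alone. The LPS response of Irak3 was 0.64 ± 0.0881 larger on the log2 scale in KO (SE, adjusted p = 0.000133). That of Cd14 was 0.48 ± 0.0908 larger (adjusted p = 0.00171) and that of Tirap 0.48 ± 0.11 larger (adjusted p = 0.00667). These 3 calls held without each of the 12 libraries in turn. That of Ticam2 was smaller, at -0.31 ± 0.0933 (adjusted p = 0.0295), and lost the threshold when any of 5 libraries was left out. Irak2, which was higher in KO with both treatments, had an interaction of -0.06 ± 0.0961 (adjusted p = 0.753), with a 95% interval of -0.24 to 0.13. For Myd88 the interaction was 0.14 ± 0.0737 (adjusted p = 0.234, 95% interval -0.01 to 0.28). That of Irak1 passed by totals alone (-0.27, adjusted p = 0.0272). With the ratios, which no scaling affects, the change with LPS was larger in KO by 0.54 for Irak3 to Irak4, 0.80 for Tirap to Ticam2 and 0.69 for Irak3 to Irak2 on the log2 scale. For Myd88 to Ticam1 the difference was 0.05 (pooled SD 0.106). It turned to -0.025 without WT LPS replicate 1 and to -0.008 without WT PBS replicate 2.

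**Figure D5:**
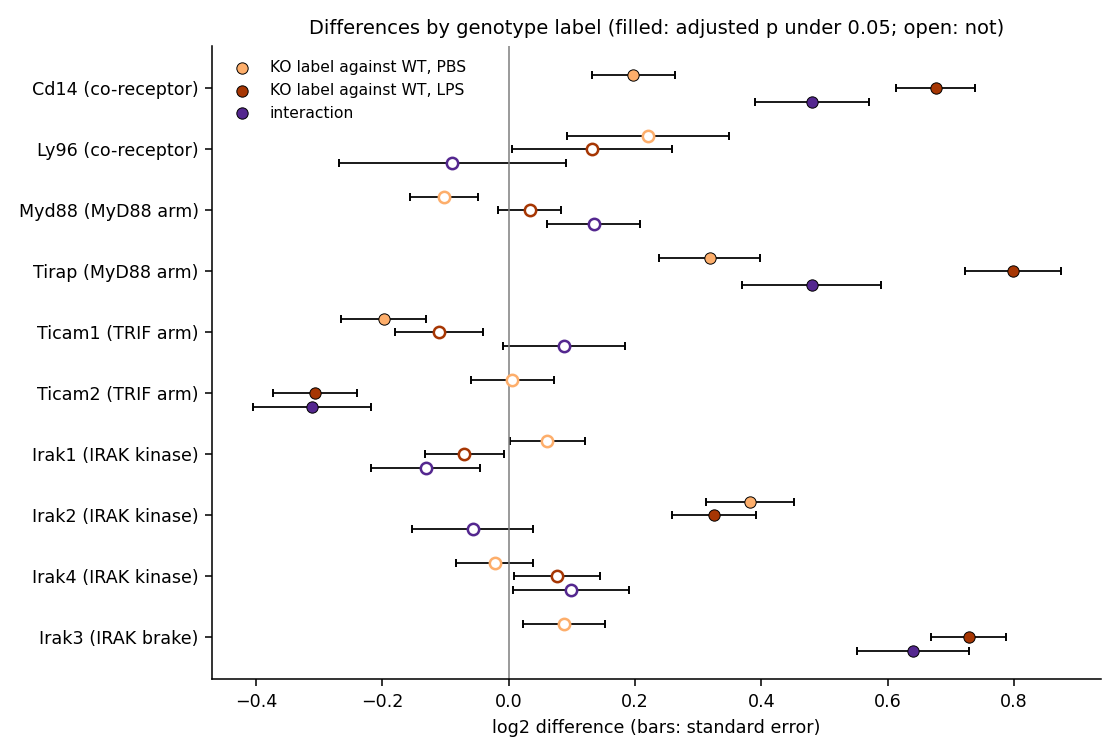
For each member the log2 difference between libraries labelled KO and WT is given under PBS and after LPS, with the interaction of both and bars for the standard error. Filled points passed an adjusted p of 0.05. Tirap, Irak3 and Cd14 lie farthest to the right after LPS, Ticam2 to the left, and Myd88, Irak1 and Irak4 near 0.

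The other genes of the pathway were read from 5 lists with 63 genes, 59 of which could be tested. With LPS 40 of them were higher and 14 lower in WT, and 40 higher and 12 lower in KO, beside 36.5% higher and 40.2% lower of all genes in WT and 38.8% and 41.1% in KO. By upper quartile the split was 33 to 18 in WT and 36 to 18 in KO, and by totals alone 29 to 26 and 27 to 25. Among 11 genes of LPS recognition and receptor folding, 6 rose and 4 fell in WT, with a median log2 fold change of 0.17 beside -0.05 over all genes. By upper quartile 4 were higher and 5 lower there, and by totals alone 4 higher and 6 lower. Casp4 (caspase-11), a sensor of LPS inside the cell, rose by 4.87 ± 0.139 (SE, adjusted p = 6.79e-14) in WT and 5.66 in KO. Aoah, an enzyme that inactivates LPS, rose by 1.56 in WT and 2.88 in KO. Cnpy3 and Cnpy4, which take part in the folding and surface delivery of Toll-like receptors, fell, with values of -1.03 and -1.68 in WT and -1.55 and -2.3 in KO. Lbp, the plasma protein that delivers LPS to CD14, was scarce at 2.39 CPM in WT PBS and 3.23 CPM in WT LPS (log2 fold change 0.43, adjusted p = 0.0402) and was at -0.05 in KO (adjusted p = 0.81), or -0.85 by totals alone (adjusted p = 0.000553). In WT its call was lost with both other filters (adjusted p = 0.0698 and 0.0553), by upper quartile (0.12) and without any of 4 libraries, WT LPS replicate 1 among them (0.46, adjusted p = 0.0518), and its value was -0.23 by totals alone.

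Downstream of MyD88, 11 of 17 genes were higher and 5 lower in WT and 12 higher and 4 lower in KO, with medians of 0.51 and 0.57 beside -0.05 and -0.04 over all genes, of which 36.5% and 38.8% were higher and 40.2% and 41.1% lower. By totals alone the split was 6 higher and 9 lower in both genotypes. Peli1, a ubiquitin ligase of the IRAK complex, rose by 3.94 ± 0.0698 (SE, adjusted p = 1.23e-17) in WT and 4.41 in KO, while Peli2 was at -3.0 and -3.82. Map3k8, the kinase that drives the ERK branch, rose by 2.77 in WT and 2.75 in KO. Traf6, the ligase that the IRAK complex engages, was at 0.27 in WT and 0.51 in KO with TMM but at -0.39 and -0.29 by totals alone. Map3k7 (TAK1) was at -0.36 in WT (adjusted p = 0.000161) and -0.03 in KO (adjusted p = 0.671), where it fell by upper quartile (-0.39, adjusted p = 2.50e-05) and by totals alone (-0.83, adjusted p = 2.93e-09). Downstream of TRIF, 8 of 11 genes were higher and none lower with TMM in both genotypes, beside 36.5% and 38.8% of all genes that were higher. The medians of this list were 2.06 and 2.34 beside -0.05 and -0.04 over all genes. By totals alone 6 of its genes were higher and 5 lower in WT and 6 higher and 4 lower in KO. The kinases Tbk1 and Ikbke rose by 2.06 and 2.48 in WT and by 2.34 and 2.96 in KO. Tank, a scaffold of these kinases, rose by 3.06 and 3.43. Irf7 rose by 4.43 and 5.92. Irf3, which is activated by phosphorylation, was at 0.11 (adjusted p = 0.217) and 0.17 (adjusted p = 0.0702). It passed as lower in both genotypes by upper quartile (-0.20, adjusted p = 0.0352, and -0.19, adjusted p = 0.0401). By totals alone it also passed as lower (-0.55, adjusted p = 8.85e-06, and -0.64, adjusted p = 1.43e-06). It passed as higher in KO with RLE scaling (0.19, adjusted p = 0.0359), with DESeq2 (0.19, adjusted p = 0.0423) and without KO LPS replicate 3 (0.20, adjusted p = 0.0479), and with the GC correction in both genotypes (0.30, adjusted p = 0.00228, and 0.44, adjusted p = 6.76e-05). Traf3 was at 0.35 and 0.68 with TMM and at -0.32 and -0.12 by totals alone, and by upper quartile its call in WT was lost (0.04, adjusted p = 0.698). 

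Of 10 tested receptors other than TLR4 that use MyD88, 9 rose and 1 fell in both genotypes, where 36.5% and 38.8% of all genes rose. By totals alone 8 rose and 2 fell in WT and 7 rose and 1 fell in KO. Tlr2 rose by 4.36 in WT and 5.24 in KO and Tlr13 fell (-2.14 and -2.08). Of 10 tested brakes on the pathway, 6 rose and 4 fell in WT and 6 rose and 3 fell in KO, beside 40.2% and 41.1% of all genes that fell. By totals alone 5 rose and 4 fell in both genotypes. Tnfaip3 (A20), which removes ubiquitin chains, rose by 4.41 and 5.12 and Usp18 by 6.23 and 6.69. Rab7b, which directs TLR4 to lysosomes, fell (-3.65 and -3.9). Sigirr had a mean of at most 1.82 CPM in any group and fell (-2.85 and -2.57). Tollip, which binds IRAK1, was at -0.30 (adjusted p = 0.00115) in WT and 0.04 (adjusted p = 0.617) in KO. In KO it passed as lower by upper quartile (-0.32, adjusted p = 0.000266) and by totals alone (-0.76, adjusted p = 1.06e-08). With the GC correction it passed there as higher (0.18, adjusted p = 0.0191). Irak3 therefore stood with those brakes that rose, below Tnfaip3 in its fold change.

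By genotype label after LPS, 24 of the 59 genes were higher in KO and 9 lower, beside 22.1% higher and 19.3% lower of all genes. The list downstream of MyD88 had 11 higher and none lower of 17 with TMM (median 0.41 beside 0.00 over all genes). By totals alone the 59 genes had 21 higher and 10 lower, and the list downstream of MyD88 had 9 higher and 1 lower. The other lists had 1 higher and 4 lower of 11 for LPS recognition and receptor folding (median -0.21), 4 higher and 1 lower of 11 downstream of TRIF (0.18), 5 higher and 3 lower of 10 for the other receptors (0.20) and 3 higher and 1 lower of 10 for the brakes (0.06). The lists were counted with no set test, so these counts do not tell the arms apart. Peli1 was higher by 0.84 ± 0.06 (SE, adjusted p = 4.10e-08), Traf6 by 0.55, Tbk1 by 0.48, Tnfaip3 by 0.68, Casp4 by 0.52 and Tlr2 by 0.89, while Cnpy3 (-0.48) and Tlr9 (-1.19) were lower. Under PBS 12 were higher and 11 lower, beside 12.3% and 13.0% of all genes, and by totals alone 17 were higher and 7 lower. Traf6 was higher by 0.30 (adjusted p = 0.00213) there, and Aoah (-1.23), Ikbke (-0.50) and Irf7 (-1.31) were lower. The interaction passed with a positive value for 16 genes and with a negative value for 3, which for genes that fell with LPS is not the size of the response, beside 9.78% and 8.26% of all genes, but by totals alone for 8 and 6. It was 0.88 ± 0.0947 for Tlr2 (adjusted p = 1.33e-05), 0.71 for Tnfaip3, 0.48 for Peli1, 1.32 for Aoah and 1.49 for Irf7, beside 0.64 for Irak3.

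The genes outside the 10 whose profile over the 12 libraries was most like a member were found by the root mean square difference of centred log2 CPM, which is a description across libraries that share their treatment. For Myd88 they were Samhd1, Spred1 and Gramd1a, at 0.0577, 0.08 and 0.0958. For Cd14 they were F10, Pcgf5 and Slc25a37 (0.0765 to 0.113), and for Irak3 Slc25a37, Ugcg and Stim2 (0.0863 to 0.116), so that Slc25a37 was near both. Irak2 was closest to Rbpms (0.0762) and Tirap to Sqstm1 (0.0895). The falling kinases were closest to Vps39 for Irak1 (0.0439) and Atad3a for Irak4 (0.0579). Ticam1 was closest to Gorasp2 (0.0468), Ticam2 to Gpr108 (0.0628) and Ly96 to Eloc (0.0691).

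Because Ythdf1 binds methylated adenosine, the letters GGACT, a common form of the methylation motif, were counted on the sense strand of 1 coding transcript per gene. They occurred in 9 of 10 members and in 91.8% of 16300 genes. Cd14 had 2.44 and Myd88 2.04 per kilobase, Ticam1 1.67, Irak2 1.56, Tirap 1.31, Irak4 1.16, Irak1 1.04, Irak3 0.969 and Ticam2 0.714, beside a median of 1.05 over all genes, and Ly96 had none in its 632 bases. Of the members that were higher in KO after LPS, Cd14, Tirap and Irak2 lay above that median and Irak3 below it, and Myd88, which did not pass, was second only to Cd14. The letters ATTTA of AU-rich elements occurred in the 3′ UTR of 7 members and in 67.3% of all genes with a 3′ UTR, with 4 in Irak2, 3 in Tirap, 2 in Ticam2 and 1 each in Cd14, Myd88, Irak1 and Irak3. Methylation was not measured in these libraries.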

How the data were processed

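RNA of 12 macrophage libraries in 4 groups of 3 was sequenced on a BGISEQ-500. The authors deposited 1 table of expected counts per library, which are estimates and carry decimals in 24.6% to 26.9% of values. The study's methods name STAR, HTSeq and edgeR, whereas the submitters' processing notes name Bowtie2, RSEM 1.3.1 and GRCm38.p6. The counts of 6 members had no decimals, while Tirap, Irak1, Irak2 and Irak4 had them in all 12 libraries, so reads shared with other genes may enter those 4. Gene counts do not separate isoforms.

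Expected counts were rounded and fitted for all 12 libraries together with edgeR 4.0.16 in R 4.3.3, by the quasi-likelihood test with TMM scaling and filterByExpr, 4 group means and Benjamini-Hochberg adjustment over 12064 genes at a threshold of 0.05. Standard errors were computed from the same fit. CPM were taken with the TMM-scaled library size, and ratios from the deposited counts with no test. Intervals are at 95% by the normal approximation, so they are somewhat narrower than the quasi-likelihood test implies. Total counts per library were of about the same size, but TMM factors were lower with LPS. Replicates varied by 6.99% for a typical gene (edgeR's biological coefficient of variation). The procedure was tested on simulated counts in which the groups differed only in a small set of genes changed in KO LPS. That test does not bear on the choice of scaling.

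The members and all gene lists were chosen with earlier results of these data known. Beside the members, Ythdf1 and a fixed set of pathway genes, the 2 genes of each list with the largest change each way were eligible to be named, if past the threshold and at 5 CPM or more. The 3 most alike genes per member were computed with a prior count of 2 on the log2 scale. Alternatives were 3 other scalings, 2 other filters, DESeq2 1.42.0, the compared libraries alone, the replicate number as a block and each library left out. A correction for GC content was added after seeing the data.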

Additional observations from a re-analysis of the deposited data

Results flagged for a closer look

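The response to LPS differed between the genotype labels for 4 of the 10 members by the interaction term (edgeR). For Irak3 the difference was 0.64 on the log2 scale, and it lay between 0.55 and 0.70 when each of the 12 libraries was left out. For Cd14 it was 0.48 and lay between 0.40 and 0.52. For Tirap it was 0.48 and lay between 0.40 and 0.55. For Ticam2 it was -0.31 and lay between -0.38 and -0.27, and the adjusted p rose above 0.05 in 5 of those 12 fits. Over the other alternatives the values were 0.50 to 0.64 for Irak3, 0.34 to 0.54 for Cd14, 0.34 to 0.49 for Tirap and -0.45 to -0.31 for Ticam2. These 4 genes are set against 18.0% of all genes that passed the same test.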

How the results depend on the processing

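Upper-quartile scaling turned the sign of Ticam1 (-0.10 in WT and -0.057 in KO), Ticam2 in KO (-0.042), Traf6 (-0.04) and Irf3 (-0.20) in WT, and Irf3 (-0.19) and Tollip (-0.32) in KO for the response to LPS, and by genotype label of Ticam2 under PBS (-0.017) and Myd88 after LPS (-0.035). Totals alone turned Ticam1 (-0.45), Ticam2 (-0.038), Traf6 (-0.39), Traf3 (-0.32), Lbp (-0.23) and Irf3 (-0.55) in WT and Ly96 (-0.054), Ticam1 (-0.50), Ticam2 (-0.49), Traf6 (-0.29), Traf3 (-0.12), Irf3 (-0.64) and Tollip (-0.76) in KO. By genotype label they turned Irak4 under PBS (0.026) and Myd88 (-0.057) and Irak4 (-0.012) after LPS, and in the interaction Myd88 (-0.003), Ticam1 (-0.05) and Irak4 (-0.039). Tollip in KO was at -0.005 with no filter and -0.01 with at least 10 counts in every library. The GC correction turned Ticam2 (-0.025) and Irak4 (0.009) under PBS, Ly96 (-0.18), Ticam1 (0.078) and Irak1 (0.074) after LPS, Irak2 in the interaction (0.011) and Lbp in KO (0.18). The cause was not tested, beyond the shift that each scaling makes by construction.

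Leaving out each library in turn gave 2 to 4 members called by genotype label under PBS, 9 to 10 for LPS in WT, where Ticam1 was lost without WT PBS replicate 2, and 3 to 4 for the interaction. The interaction of the Myd88 to Ticam1 ratio ranged from -0.025 to 0.13. Signs turned within these ranges for Irak4 (-0.043 to 0.033) and Ticam2 (-0.023 to 0.068) under PBS, Ly96 after LPS (-0.017 to 0.23), Lbp for LPS in KO (-0.21 to 0.13) and, in the interaction, Ticam1 (-0.002 to 0.15), Irak2 (-0.10 to 0.034) and Ly96 (-0.24 to 0.006). Same-numbered libraries correlated at -0.0758 to 0.127 over genes once group means were removed. For LPS against PBS in KO these pairs were at 0.0143, 0.0462 and 0.0364 and the other pairs at -0.0355 to -0.00309. With 3 libraries per group, whether same-numbered libraries share an animal cannot be told. With the replicate block 10 and 10 members were called for LPS in WT and KO, 3 and 5 by label under PBS and after LPS, and 4 in the interaction, with Cd14 under PBS at 0.20 (adjusted p = 0.0521).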
